A study of Mus musculus with 6 samples.

Results

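The genes described here encode 9 enzymes that carry sterol synthesis from the closing of squalene epoxide into lanosterol to cholesterol: Lss, Cyp51, Tm7sf2, Msmo1, Nsdhl, Hsd17b7, Ebp, Sc5d and Dhcr7. They were chosen as the probes whose accession maps to a gene of these steps, which gave 16 of 56605 probes and 9 of 22911 named genes. The livers came from male mice with Elovl6 deleted in the liver alone (LKO, 3 mice), the elongase that lengthens palmitate towards stearate, and from control mice labelled Flox (3 mice). Both groups had eaten the high-sucrose diet D11725 for 14 days and had been fasted for 4 hr before the liver was taken. RNA of each mouse was labelled with Cy3 and hybridised to 1 one-colour Agilent mouse expression array. The labels used here give neither the promoter that drives the recombinase nor the age of the mice.

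Cholesterol is built from acetyl-CoA through mevalonate, isoprenoid units and squalene, and the enzymes named above then close the rings, strip methyl groups and move double bonds in the membrane of the endoplasmic reticulum. The liver is a main site of this synthesis in the body. Most genes of the route are known targets of the transcription factor SREBP-2, encoded by Srebf2, which Scap escorts to the Golgi, where proteases release it from the membrane, and which the Insig proteins hold back when sterols are plentiful.

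The values below are signals divided by the 75th percentile of all signals on the same array, so 1 is the level of that percentile. Log2 changes are LKO minus control. Adjusted p-values are from limma with Benjamini-Hochberg adjustment over 14171 genes, and the groups are said not to overlap where every LKO mouse lies on one side of every control mouse. Elovl6 served as a check of the labels. It had scaled signals of 0.228, 0.334 and 0.364 in LKO livers, against 21.3, 43.0 and 22.8 in control livers, a log2 change of -6.51 ± 0.30 (SE, n = 3 each, limma adjusted p = 0.00279). The labels do not say whether its probe lies inside the deleted part. On each array 52.1% to 56.6% of spots stood well above background, and none was saturated. All arrays shared 1 slide and 1 scan time. LKO mouse 1 and the 3 control mice lay in one column of the slide and LKO mice 2 and 3 in the other. Control mice 1, 2 and 3 lay in rows 1, 2 and 3, and LKO mice 1, 2 and 3 in rows 4, 3 and 4. Position on the slide and group can therefore not be fully told apart. Marker genes of hepatocytes were measured for 10 of 10, with summed scaled signals of 4953 to 5226 in LKO livers and 4697 to 4901 in control livers.

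Signals for 8 of the 9 enzymes were lower in every LKO liver than in every control liver, by 1.39-fold for Sc5d to 2.17-fold for Nsdhl, and Ebp alone overlapped between the groups. Over all genes, 9.21% were lower without overlap. None of the 9 passed an adjusted p of 0.05, which 0.0141% of all genes did, that is 2 genes. At an unadjusted p under 0.05, 8 of 9 were lower, against 5.6% of all genes. All 9 log2 changes were under 0, against 49.2% of all genes. The median of the 9 was -0.63, and the median of all genes was 0.003. A log2 change as low as that median or lower was seen for 249 genes, 1.76% of those tested. In bulk liver, fewer cells of a type and less RNA per cell cannot be told apart. With median scaling the genes at an unadjusted p under 0.05 split into 1000 lower and 523 higher, against 794 lower and 788 higher with the 75th percentile, and the same 8 enzymes were at an unadjusted p under 0.05 under both.

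**Figure D1:**
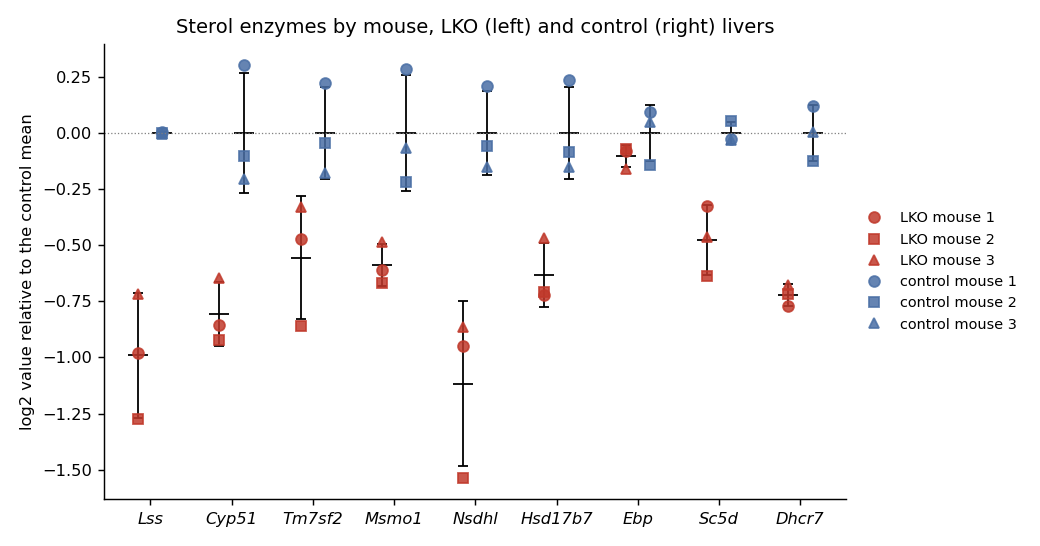
Log2 value of each enzyme in each mouse relative to the control mean of that gene, LKO mice at the left and control mice at the right of each pair, with the group mean and SD (n = 3 each) as bars. The LKO points lie below all control points for every enzyme except Ebp, whose points mix.

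**Figure D2:**
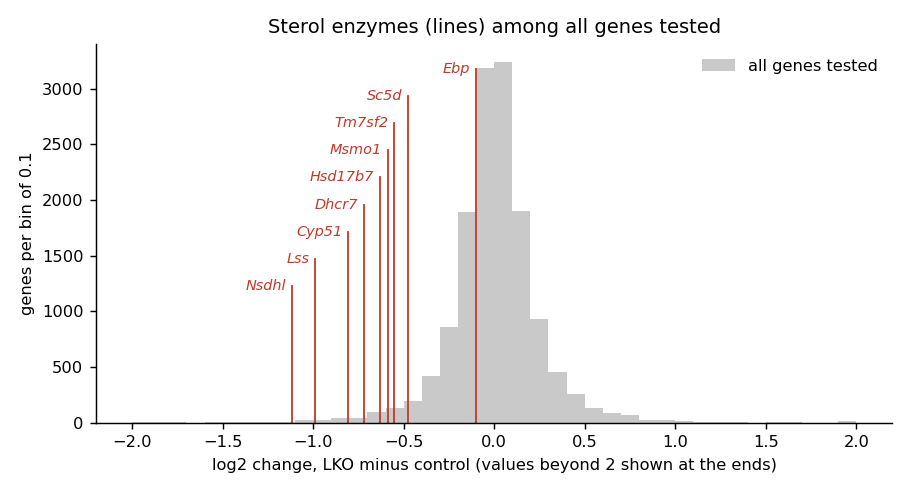
Number of genes per bin of log2 change (LKO minus control, bins of 0.1) for the 14171 genes tested, with a line at the log2 change of each enzyme; line heights only separate the names. Ebp lies within the bulk of the genes, and the other 8 lie between -1.12 and -0.48, in the lower tail.

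Promoter sequences were matched for 9 of 9 enzymes, with 11 starts in all because Dhcr7 has 3 (RefSeq, GRCm38.p6). The letters searched, on both strands, from 250 bases before to 50 after each start, were TCACNCCAC and TCACNNCA, forms of the sterol regulatory element, and CCAAT, the site read by NF-Y. CCAAT stood in promoters of 9 of 9 enzymes, against 41.1% of 27025 genes counted in the same way, by any of their promoters (37.4% of 32851 promoters). TCACNNCA stood in 6 of 9, in all but Lss, Tm7sf2 and Ebp, against 15.7% of genes (13.8% of promoters); of the 3 starts of Dhcr7 the first held none. TCACNCCAC stood in 0 of 9, against 1.44% of genes (1.24% of promoters). Promoters were matched for 6 genes of the earlier steps, from acetyl-CoA to squalene epoxide. Of these 6, CCAAT stood in 5, TCACNNCA in 2 and TCACNCCAC in 1. These are matches of letters and not sites shown to be bound. The 250 bases before the start are shown for Nsdhl and Lss, which had the largest log2 changes, Cyp51 and Hsd17b7, which share the same 8 letters, Dhcr7 at the third start, which holds both motifs, and Ebp, which overlapped between the groups. Capitals mark CCAAT and TCACNNCA on either strand (ATTGG is CCAAT on the opposite one), and in Nsdhl a match of TCACNNCA runs on past the start.
Nsdhl, chrX:72918271-72918520, plus strand: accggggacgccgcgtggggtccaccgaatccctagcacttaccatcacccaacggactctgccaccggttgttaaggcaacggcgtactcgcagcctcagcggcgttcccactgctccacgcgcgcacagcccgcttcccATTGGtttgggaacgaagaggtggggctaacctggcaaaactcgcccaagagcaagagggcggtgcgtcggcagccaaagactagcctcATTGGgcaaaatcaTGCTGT
Lss, chr10:76531355-76531604, plus strand: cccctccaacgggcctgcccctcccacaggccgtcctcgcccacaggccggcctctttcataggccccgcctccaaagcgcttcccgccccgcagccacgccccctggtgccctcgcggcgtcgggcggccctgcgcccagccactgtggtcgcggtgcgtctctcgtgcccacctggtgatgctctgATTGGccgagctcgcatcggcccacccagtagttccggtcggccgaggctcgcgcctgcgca
Cyp51, chr5:4104698-4104947, minus strand: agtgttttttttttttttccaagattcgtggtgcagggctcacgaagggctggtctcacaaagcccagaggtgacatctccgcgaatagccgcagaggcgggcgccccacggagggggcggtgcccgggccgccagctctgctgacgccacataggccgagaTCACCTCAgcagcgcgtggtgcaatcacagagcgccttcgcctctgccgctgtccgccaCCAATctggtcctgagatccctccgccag
Hsd17b7, chr1:169969206-169969455, minus strand: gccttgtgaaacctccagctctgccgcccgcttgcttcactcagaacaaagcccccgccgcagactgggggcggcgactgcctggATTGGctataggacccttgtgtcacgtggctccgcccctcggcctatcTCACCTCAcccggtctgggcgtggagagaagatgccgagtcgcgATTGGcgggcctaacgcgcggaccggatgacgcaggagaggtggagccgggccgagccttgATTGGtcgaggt
Dhcr7, chr7:143829964-143830213, plus strand: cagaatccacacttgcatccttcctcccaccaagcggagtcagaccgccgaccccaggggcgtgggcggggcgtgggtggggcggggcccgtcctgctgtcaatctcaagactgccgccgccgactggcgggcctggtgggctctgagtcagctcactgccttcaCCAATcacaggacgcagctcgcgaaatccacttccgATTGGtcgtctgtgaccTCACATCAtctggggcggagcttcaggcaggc
Ebp, chrX:8193513-8193762, minus strand: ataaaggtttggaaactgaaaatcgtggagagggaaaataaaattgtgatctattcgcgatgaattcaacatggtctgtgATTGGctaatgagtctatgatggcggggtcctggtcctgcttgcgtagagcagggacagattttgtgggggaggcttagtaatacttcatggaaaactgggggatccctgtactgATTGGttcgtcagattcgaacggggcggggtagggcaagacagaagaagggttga

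Lss, lanosterol synthase, folds squalene epoxide into lanosterol, the first sterol of the route. Its scaled signals were 3.85, 3.15 and 4.63 in LKO livers, against 7.63, 7.60 and 7.59 in control livers. The control mice were nearly equal and the LKO mice spread more widely, all of them lower. The log2 change was -0.99 (95% interval -1.33 to -0.65, adjusted p = 0.122). Its promoter window held CCAAT and no TCACNNCA.

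Cyp51, the cytochrome P450 that removes the first methyl group of lanosterol, had scaled signals of 6.32, 6.03 and 7.30 in LKO livers, against 14.1, 10.6 and 9.91 in control livers. The groups did not overlap, and control mouse 1 was the highest. The log2 change was -0.81 (95% interval -1.17 to -0.44, adjusted p = 0.181). In its promoter, shown above, TCACCTCA began 88 bases before the start.

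Tm7sf2, a sterol reductase that acts on the product of Cyp51, had scaled signals of 52.6, 40.2 and 58.1 in LKO livers, against 85.1, 70.9 and 64.6 in control livers. The gap between the groups was narrow, with LKO mouse 3 close to control mouse 3. The log2 change was -0.55 (95% interval -0.96 to -0.15, adjusted p = 0.328), and the p was the largest among the 8 genes that did not overlap.

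The next 3 enzymes act together to remove the remaining methyl groups at one ring position. Msmo1, the oxidase that oxidises those groups, had scaled signals of 25.4, 24.4 and 27.7 in LKO livers, against 47.3, 33.3 and 37.0 in control livers. The LKO mice were alike and all below the lowest control mouse, with a log2 change of -0.59 (95% interval -0.93 to -0.25, adjusted p = 0.252).

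Nsdhl, the dehydrogenase that takes off the oxidised group as carbon dioxide, showed the largest log2 change of the 9. Its scaled signals were 3.60, 2.40 and 3.83 in LKO livers, against 8.05, 6.69 and 6.28 in control livers. LKO mouse 2 was the lowest, and the highest LKO mouse was still well below the lowest control mouse. The log2 change was -1.12 (95% interval -1.59 to -0.65, adjusted p = 0.162).

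Hsd17b7, the reductase that turns the resulting ketone back into an alcohol, had scaled signals of 7.19, 7.26 and 8.58 in LKO livers, against 14.0, 11.2 and 10.7 in control livers. The groups did not overlap, and the log2 change was -0.63 (95% interval -0.95 to -0.32, adjusted p = 0.208). Its promoter held the letters TCACCTCA too, beginning 117 bases before the start.

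Ebp, the isomerase that shifts a ring double bond, had scaled signals of 128, 129 and 122 in LKO livers, against 145, 123 and 140 in control livers. Control mouse 2 lay between the LKO mice. The log2 change was -0.10 (95% interval -0.33 to 0.12, adjusted p = 0.731), so the point value of Sc5d, -0.48, lay outside the interval. The 95% interval of Sc5d itself, -0.72 to -0.23, reached into it. Overlap of separate intervals is no test of a difference between genes measured on the same arrays. Ebp and Sc5d are thereby shown neither to differ nor to be alike. The log2 change of Ebp was -0.06 without control mouse 1 and -0.17 without control mouse 2. Leaving out control mouse 2 ended the overlap between the groups. The processed signals of this probe were 33263 to 43246 and none was saturated; the other Ebp probe gave -0.18 ± 0.10 (SE), with every LKO mouse below every control mouse. Its promoter held CCAAT at 170 and 55 bases before the start and no TCACNNCA.

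Sc5d, the desaturase that makes the precursor of vitamin D and cholesterol, had scaled signals of 65.9, 53.1 and 59.9 in LKO livers, against 81.2, 85.9 and 81.0 in control livers. The control mice were close together and all higher, with a log2 change of -0.48 (95% interval -0.72 to -0.23, adjusted p = 0.217). TCACATCA began 52 bases before its start.

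Dhcr7, the reductase that turns that precursor into cholesterol, had scaled signals of 2.27, 2.36 and 2.42 in LKO livers, against 4.21, 3.55 and 3.88 in control livers. The LKO mice were nearly equal, and the lowest control mouse was well above them. TCACATCA, as in Sc5d, began 32 bases before the third start of Dhcr7. The log2 change was -0.72 (95% interval -0.95 to -0.50), with the smallest p of the 9 (unadjusted p = 0.000144, adjusted p = 0.100 in limma). With a trended and robust variance model its adjusted p was 0.0493, and with the 75th percentile taken in either of 2 other ways that model gave a lowest adjusted p among the 9 of 0.0505 or 0.0507.

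With 3 mice against 3, the exact two-sided permutation test cannot go below p = 0.1. It gave that value for the 8 genes without overlap and an exact p = 0.3 for Ebp. Of the 8 other genes, each set against Ebp on the same array, the distance from Ebp was lower in every LKO liver for 7 of 8 (exact permutation p = 0.1, 0.114 after Benjamini-Hochberg adjustment over 8 pairs), and overlapped for Tm7sf2 (p = 0.2). Ebp was picked for this comparison after its values were seen, as the only enzyme that overlapped between the groups. The 8 others were already known to be lower without overlap, and all 8 pairs share the same Ebp values. How often the distance from Ebp separates the groups over all genes was not computed. These counts and p-values therefore cannot decide whether Ebp differs from the other enzymes.

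Averaged over the 9 genes, the log2 difference from the control mean was -0.64, -0.82 and -0.53 in LKO mice 1, 2 and 3, against 0.16, -0.08 and -0.08 in control mice 1, 2 and 3. LKO mouse 2 was the lowest of its group for 6 of the 9 genes, and LKO mouse 3 the highest for 7. Control mouse 1 was the highest of its group for 8 of the 9. LKO mouse 1, which shared its slide column with the 3 control mice, had a mean between those of the other LKO mice. Only that mouse could be set against controls within a column, and there the median log2 change of the 9 was -0.72. Its row on the slide still differed from those of the controls.

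Probes of one gene gave like values. Of the 16 probes, 16 had a log2 change under 0, 14 were at an unadjusted p under 0.05 (5.4% of 27950 probes were lower in that sense), and 15 did not overlap between the groups (9.11% of probes). None passed an adjusted p of 0.05, which 0.0215% of probes did. The 6 genes with more than 1 probe differed between their probes by at most 0.17 on the log2 scale, for Lss, whose 3 probes ran from -1.11 to -0.93.

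**Figure D3:**
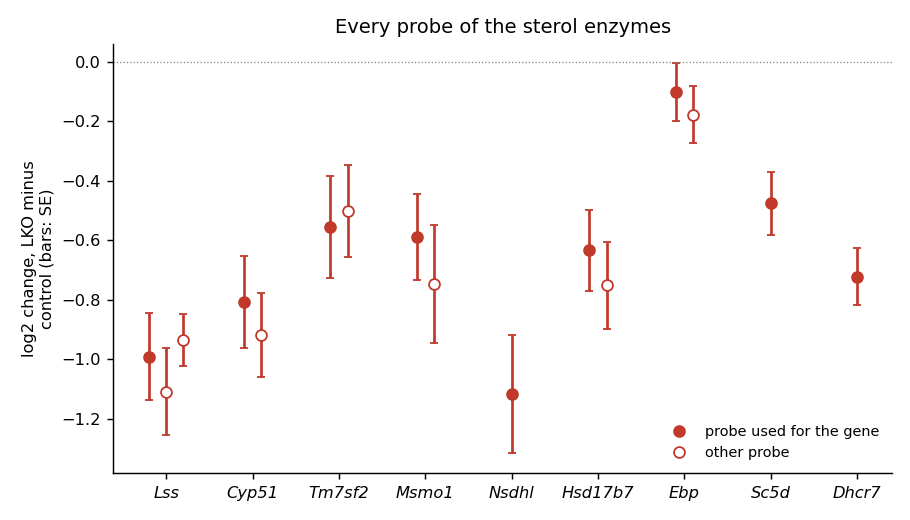
Log2 change (LKO minus control) with its SE for every probe of the 9 enzymes, filled for the probe that stands for the gene and open for the others. Probes of a gene lie within 0.17 of each other, and both Ebp probes lie nearest to 0.

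The upstream steps, from acetyl-CoA to squalene epoxide, gave 8 genes reported here, with log2 changes under 0 for 8 of 8 (49.2% of all genes), lower at an unadjusted p under 0.05 for 7 (5.6% of all genes) and lower without overlap for 7 (9.21% of all genes). None passed an adjusted p of 0.05. Their median log2 change was -1.01. Mvd, which makes isopentenyl diphosphate, had scaled signals of 1.08, 0.889 and 1.43 in LKO livers, against 4.61, 2.62 and 2.83 in control livers (log2 change -1.55). Hmgcs1, the synthase of HMG-CoA, had lower signals in every LKO liver than in any control liver (log2 change -1.27, adjusted p = 0.100). These 2 were the lowest of the list.

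Sqle, the epoxidase that supplies the substrate of Lss, had a log2 change of -1.18, and Fdps, the synthase of farnesyl diphosphate, one of -1.10. Idi1, an isomerase of isoprenoid units, had -0.91. Pmvk, a mevalonate-step kinase, had -0.80, and Fdft1, squalene synthase, had -0.73. Mvk, mevalonate kinase, overlapped between the groups, with 10.4, 10.4 and 11.6 in LKO livers, against 17.7, 11.2 and 12.2 in control livers (log2 change -0.31, adjusted p = 0.574). As in the later steps, LKO mouse 2 was lowest in the mean of this list and LKO mouse 3 highest, at -1.30 and -0.67.

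Lbr, a nuclear membrane protein with the same reductase activity as Tm7sf2, overlapped between the groups. Its scaled signals were 3.09, 2.95 and 3.59 in LKO livers, against 3.85, 3.79 and 3.54 in control livers, a log2 change of -0.22 ± 0.10 (SE, adjusted p = 0.496).

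**Figure D4:**
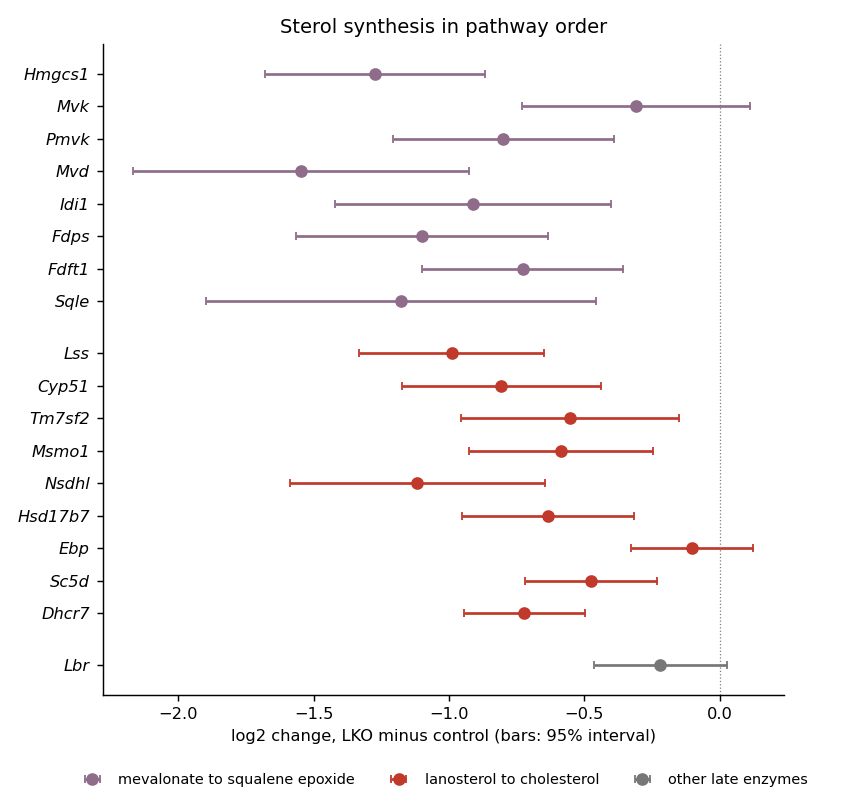
Log2 change (LKO minus control) with its 95% interval for genes of sterol synthesis in pathway order, n = 3 mice each. The intervals of Mvk, Ebp and Lbr reach past 0, and those of the other 15 genes lie below it.

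Among the electron donors and partners of the oxidases, 4 of 6 had a log2 change under 0 and 2 above. Por, the reductase that feeds electrons to Cyp51 and to squalene epoxidase, had higher signals in LKO livers. Its scaled signals were 29.7, 32.3 and 37.3 in LKO livers, against 20.1, 16.2 and 16.2 in control livers (log2 change 0.92, adjusted p = 0.116), all LKO mice being above all control mice, as for 8.11% of all genes. Cyb5b, a cytochrome b5 of the outer mitochondrial membrane, had a log2 change of -0.41.

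Of the 9 genes of SREBP-2 processing and sterol sensing, 7 had a log2 change under 0, as did 49.2% of all genes. An unadjusted p under 0.05 was seen for 4, all lower, against 5.6% of all genes. Without overlap, 5 were lower and 1 higher, against 9.21% and 8.11% of all genes. Srebf2 had scaled signals of 0.304, 0.332 and 0.282 in LKO livers, against 0.464, 0.366 and 0.438 in control livers (log2 change -0.46, adjusted p = 0.268). Scap, the escort of SREBP, had 24.7, 21.9 and 22.4 in LKO livers, against 28.2, 31.0 and 30.8 in control livers (log2 change -0.38, adjusted p = 0.248). Neither overlapped between the groups. Insig1, with a log2 change of -0.58, and Insig2, with -0.59, were also lower without overlap. Among 5 other targets in sterol uptake and transport, 2 had an unadjusted p under 0.05, all lower, against 5.6% of all genes. Stard4, a sterol carrier, had -0.50, and Tmem97, a membrane protein of the endoplasmic reticulum, had -0.36 with overlapping groups. Of 10 genes of sterol disposal, 4 were under 0 and 6 above, with Cyp8b1, a bile acid hydroxylase, at -0.64 and Abcg5, a sterol exporter subunit, at 0.21. No gene of these 4 lists passed an adjusted p of 0.05.

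Marker lists of other cells were set beside these values, and their part in the results was not tested. For 7 measured neutrophil markers the average log2 difference from the control mean was 0.41, 0.93 and 1.25 in LKO mice 1 to 3, against -0.21, 0.19 and 0.02 in control mice 1 to 3. Of the 7, 5 had a log2 change above 0, and 3 were higher at an unadjusted p under 0.05, as were 5.56% of all genes. Their summed scaled signals were 74.1 to 86.5 in LKO livers and 68.6 to 79.6 in control livers, and Ngp was not well above background on any array. For Kupffer cell and macrophage markers 10 of 10 had a log2 change above 0, where 49.2% of all genes were under 0. Higher at an unadjusted limma p under 0.05 were 2, against 5.56% of all genes. Higher without overlap were 2, against 8.11% of all genes. The average differences of the list overlapped, at 0.20, 0.29 and 0.49 in LKO mice 1 to 3, against -0.01, 0.27 and -0.26 in control mice 1 to 3. Its summed scaled signals were 109 to 130 in LKO livers and 88.2 to 121 in control livers. Of the hepatocyte markers 8 of 10 were above 0, with a median of 0.06, and of the erythroid markers 5 of 5. Median log2 changes of the lymphocyte, endothelial, stellate cell and bile duct lists lay between -0.05 and 0.11.

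Genes were ranked by how near their values over the 6 arrays lay to the mean of the 9 enzymes. With the 9 and genes with predicted names left out, the nearest were Rrm2, Cry1, Fdft1, Rergl, Ces2e and Slc16a11. The measure was the root mean square difference of log2 values relative to the control mean, which ran from 0.060 for Rrm2 to 0.121 for Slc16a11. Of these 6, Fdft1 belongs to the route. On the same measure, Hsd17b7 lay at 0.075, Dhcr7 at 0.100, Msmo1 at 0.102 and Tm7sf2 at 0.120, within that span. The rest of the 9 ran from 0.131 for Cyp51 to 0.418 for Ebp. All 9 are part of the mean.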

How the data were processed

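Per the labels' protocols, Cy3-labelled cRNA was made from 0.1 µg of total liver RNA of 1 mouse per array. Per the file headers and the submitters' processing notes, the deposited processed signal is a background-corrected intensity made with Agilent Feature Extraction 11.5.1.1. The deposited median signals are raw intensities, and the deposited quality flags are other values of the same software. In the authors' value table each array's processed signal intensity was multiplied by a constant of 2.08 to 2.48 (column medians 63.7, 59.1 and 62.2 in LKO mice 1 to 3, and 55.3, 62.9 and 61.5 in control mice 1 to 3). It is linear and not centred, in the direction of the signal; no source used here says how the constants were chosen.

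Control and outlier spots (64 to 111 per array) were left out, spots of a probe were averaged, and the array's 75th percentile of the processed signal (265 to 298) was subtracted on the log2 scale. That percentile was computed in 3 ways, with results seen each time: over all spots but control spots, without outlier spots as well, and over averaged probes. The first was kept because it matches the earlier processing of these files; the other 2 are given as alternatives. Accessions were matched to the RefSeq table of GRCm38.p6: 32994 probes had 1 symbol, 0 several and 23611 none. The array headers name an earlier build, so no probe positions are printed; promoter coordinates are those of the RefSeq table. A gene was its brightest probe over 6 arrays, tested where 1 group or both had it well above background on all 3 arrays and each group had 2 values or more (14171 genes tested, 8740 not). limma 3.58.1 in R 4.3.3 was fitted without covariates and tested on simulated data. Precision is limited by the number of arrays.

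The 9 enzymes and all lists were chosen with earlier results of these data known. Named were all 9, Elovl6 and the listed genes of the upstream and other late steps. Of each further list that is not a marker list, the 2 of smallest p were named. The 6 genes nearest to the mean of the 9 were named too, with the 9 and predicted names left out. Insig1 and Insig2 were named outside this rule. Alternatives covered normalization, background correction, the authors' values, dim probes, probes of a gene, the variance model, a replicate block, the slide column and each mouse left out. The files used hold no mean signal, so background correction with normexp used median signals, a departure from the plan. A planned comparison of protein sequences was not made here. Acat2 was not matched and is not analysed here, and some genes of the lists are not reported here.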

Additional observations from a re-analysis of the deposited data

How the results depend on the processing

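Under 21 alternatives, 6 of them chosen after seeing the data (normexp on median signals, slide column 1 alone, and the 75th percentile taken in 2 other ways, each with both variance models), the median log2 change of the 9 enzymes stayed between -0.72 and -0.52. All 9 log2 changes were under 0 in every one, and 8 or 9 did not overlap. At an unadjusted p under 0.05 were 8 in every alternative but the 2 that compare within a slide column. Those 2 were the slide column as a covariate and slide column 1 alone. The other column holds LKO mice only, so both take the change from LKO mouse 1 against the 3 control mice. Both gave the same median log2 change of the 9, -0.72, and are not separate checks. That 1 LKO mouse is assumed to vary like the other mice, so p-values and calls of both say nothing about stability. The 9 without overlap came without control mouse 2. Elovl6 ranged from -6.92 to -5.61. The number of enzymes past an adjusted p of 0.05 was 0 except with the trended and robust variance model, which called 1, Dhcr7 (adjusted p = 0.0493). Under that model the other percentile definitions called 0, with a lowest adjusted p of 0.0507 without outlier spots and 0.0505 over averaged probes, so that call depends on how the percentile was taken. The adjusted p of Dhcr7 ran from 0.0493 to 0.543 over the alternatives. Over all genes the count past an adjusted p of 0.05 was 2, and it became 1 with normexp, without a filter on dim probes, with probes above background on all 6 arrays, with slide column as covariate, and with the percentile without outlier spots under the trended and robust model. It became 13 with that model alone, 12 with the percentile over averaged probes under it, and 58 within slide column 1, and it ran from 1 to 15 with 1 mouse left out (15 without LKO mouse 1); the cause was not tested. The genes at an unadjusted p under 0.05 were 50.2% lower, and 65.7% with median scaling. Deviations of same-numbered mice correlated at 0.04, -0.05 and -0.07, within the span of the other LKO and control pairs, -0.11 to 0.16. Mice that share a replicate number were thus not more alike, which does not settle whether the mice were paired. With the replicate block the median of the 9 was -0.63, 3 genes were called over all and none of the 9. With 3 mice per group, differences that miss the adjusted threshold are not shown to be absent.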
